A study of Mus musculus with 23 samples.

Results

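Hemoglobin and erythroid genes were followed through sorted mouse lung tumor cells. The genes were chosen by name: the alpha globins Hba-a1 and Hba-a2, the beta globins Hbb-bs and Hbb-bt, and the red cell genes Alas2 and Slc4a1. These are 6 of the 35455 genes in the table of BRAF and BRAF/PI3K tumors and 6 of the 35454 genes in the table of PGC1a het and PGC1a null tumors. All 6 reached a mean normalized count of at least 10 in both tables, as did 17558 and 17424 genes in all, and only such genes were tested.

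Hemoglobin is built from a pair of alpha and a pair of beta chains, each holding a heme with an iron atom that binds oxygen. Red cell precursors make both chains in balance together with heme, and young red cells still carry globin mRNA after the nucleus is lost. Alas2, the erythroid aminolevulinate synthase, starts heme synthesis in these precursors, and Slc4a1 encodes band 3, the anion exchanger that anchors the red cell skeleton. Alveolar type 2 (AT2) cells, the surfactant-producing cells of the alveolus from which these tumors were started, have also been described to make alpha and beta globin. A globin transcript in a sorted tumor sample can therefore come from blood or from the epithelium, while Alas2 and Slc4a1 mark the erythroid lineage.

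RNA was sequenced from 23 libraries of tdTomato-positive cells sorted by flow cytometry from tumor-bearing lungs. The question was how PI3K activation, and separately loss of PGC1a, alter lung tumors driven by oncogenic BRAF. The BRAF group carried the Braf CAT allele over a normal copy (CAT/+), with 1 library at 2 weeks after induction, 3 at 6 weeks and 2 at 12 weeks. The BRAF/PI3K group carried CAT/+ with the Pik3ca HR allele over a normal copy (HR/+), with 2, 4 and 2 libraries at the same times. At 12 weeks 5 PGC1a het libraries carried CAT/+ and PGC1a mutant/+, and 4 PGC1a null libraries carried CAT/+ and PGC1a mutant/mutant. The mice were 3 to 4 months old. Every mouse thus carried the Braf CAT allele, which comes from 1 targeted embryonic stem cell clone and after CRE makes oncogenic BRAF with the red protein tdTomato. CRE came from an adenovirus restricted to Sftpc-expressing cells, given at a lower dose to mice harvested at 12 weeks, so virus dose and time at 12 weeks cannot be told apart. The PGC1a het controls themselves carried 1 mutant allele. The mice were of mixed background, and which beta globin alleles they carried was not given in the sources used here. Hbb-bs and Hbb-bt are the gene pair of the reference strain, and other strains can carry other alleles. The lungs were flushed with saline through the heart, and red cells were lysed before sorting. Both steps are meant to remove blood, and how much was left was not measured.

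Libraries summed to 1.64e+07 to 2.03e+07 normalized counts in the BRAF and BRAF/PI3K table and 7.12e+06 to 9.16e+06 in the PGC1a table. The tables were normalized apart, so levels are compared only within a table. Sftpc, the defining AT2 marker, stood at 21173 to 392700 and 222448 to 348418 normalized counts. Ppargc1a, the gene targeted in the PGC1a mice, had a median of 170 normalized counts (75.8 to 561, n = 5) in the het and 62.1 (38.0 to 124, n = 4) in the null libraries, so the groups overlapped. In the 12-week BRAF/PI3K group the Y-linked gene Ddx3y stood at 55.4 normalized counts in the library labelled male and 1420 in the library labelled female, against their labels. In the other 12 libraries of that table Ddx3y matched the labels, at 36.2 to 91.3 normalized counts in females and 780 to 1587 in males, so an exchange of either library with any single one of these would have put that one against its label too. An exchange of the pair with each other would leave the groups as they are, and whether it took place or the sex labels are wrong was not tested. Ppargc1a stood at 75.5 normalized counts in the first of the pair and at 415 in the second, on either side of both 12-week BRAF libraries (350 and 408). Values without these 2 libraries are given below.

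The transcripts of each globin pair are nearly identical, which limits how well reads of 50 bases can be assigned to a single gene. Hba-a1 (chr11:32283511-32284465, GRCm38.p6, plus strand, 3 exons) and Hba-a2 (chr11:32296489-32297298, plus strand, 3 exons) share a coding sequence of 426 bases with 1 difference, C381T, counted from the A of the start codon and written from Hba-a1 to Hba-a2. Hbb-bs (chr7:103826534-103828096, minus strand, 3 exons) and Hbb-bt (chr7:103812524-103813996, minus strand, 3 exons) share 441 coding bases with 1 difference, C417T, from Hbb-bs to Hbb-bt. The windows around these differences are shown because they hold the only coding base by which a read can be told to its copy, with that base in capitals. The alpha windows are coding bases 351 to 410 and the beta windows 382 to 441.
Hba-a1: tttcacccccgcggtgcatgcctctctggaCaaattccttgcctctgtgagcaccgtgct
Hba-a2: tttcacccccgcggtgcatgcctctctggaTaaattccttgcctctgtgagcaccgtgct
Hbb-bs: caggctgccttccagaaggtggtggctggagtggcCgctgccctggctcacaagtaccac
Hbb-bt: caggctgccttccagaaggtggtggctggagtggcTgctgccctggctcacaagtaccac
Outside the coding sequence the pairs differ in their untranslated ends. Of all stretches of 50 bases in the annotated transcripts, 72.3% of Hba-a1, 89.3% of Hba-a2, 53.2% of Hbb-bs and 58.3% of Hbb-bt also occur in another gene. No stretch of Alas2 (chrX:150547375-150570638, plus strand, 11 exons) or Slc4a1 (chr11:102348824-102366203, minus strand, 20 exons) does. The estimates split shared reads between copies, so the level of a single globin gene is uncertain, and sums over a pair are less so.

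Promoter sequence before the RefSeq start sites (GRCm38.p6) is shown because the 4 globins varied together across libraries, as described further on, while Alas2 and Slc4a1 followed them less. Within the 110 bases before each start, both strands were searched for the box written CACCC, for the box written CCAAT and for the GATA letters AGATAA. The gene's own strand alone was searched for CATATAA, the form of the TATA box found in some globin genes, and for the usual form TATAAA, which can overlap it. Matches are in capitals. Pieces are given 5′ to 3′ on the gene's strand, and for the beta globins as short pieces because the GENCODE gene models begin further upstream.
Hba-a2, chr11:32296382-32296488, plus strand: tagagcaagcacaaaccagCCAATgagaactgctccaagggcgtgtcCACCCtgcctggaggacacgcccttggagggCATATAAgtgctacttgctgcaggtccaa
Hbb-bs, chr7:103827994-103828023, minus strand: agccaCACCCtggtaagggCCAATctgctc
Hbb-bs, chr7:103827947-103827976, minus strand: caggagccagggcagagCATATAAggtgag
Hbb-bt, chr7:103813989-103814018, minus strand: gggtaaCACCCtggcATTGGCCAATctgct
Hbb-bt, chr7:103813942-103813971, minus strand: gcaggagccagcATTGGgtaTATAAAgctg
Alas2, chrX:150547307-150547374, plus strand: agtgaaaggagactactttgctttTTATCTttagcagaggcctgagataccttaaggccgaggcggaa
The Hba-a1 promoter shares an unbroken run of 247 of 250 bases with that of Hba-a2, whereas the longest run shared by the promoters of Hbb-bs and Hbb-bt is 14 bases. All 4 globin promoters held the CACCC and the CCAAT box within 110 bases, letters present in 29.6% and 20.2% of 32851 RefSeq promoters at that length. Hba-a1, Hba-a2 and Hbb-bs held CATATAA (0.508% of promoters) and Hbb-bt held TATAAA (3.99%). Alas2 held TTATCT, the reverse complement of AGATAA (3.99%), and, downstream of the piece shown, GGGTG, the reverse complement of CACCC. A match is a description of the letters and says nothing of a factor's binding.

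Of the alpha globins, Hba-a2 had 40.3 to 469 normalized counts over the 14 BRAF and BRAF/PI3K libraries (median 109), and Hba-a1 had 12.9 to 198 (median 48.2). In the BRAF group Hba-a1 stood at 39.8 in the library at 2 weeks, at 93.2, 115 and 198 at 6 weeks and at 52.5 and 79.9 at 12 weeks. In the BRAF/PI3K group it stood at 82.6 and 30.01 at 2 weeks, at 75.6, 41.5, 32.5 and 43.9 at 6 weeks and at 12.9 and 38.2 at 12 weeks. At 6 weeks all 4 BRAF/PI3K libraries lay below all 3 BRAF libraries, while at 2 weeks the only BRAF library lay between the BRAF/PI3K ones.

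Of the beta globins, Hbb-bs had the highest median level of the 6 genes per kb of transcript. In the BRAF group Hbb-bs stood at 437 normalized counts at 2 weeks, at 811, 818 and 2876 at 6 weeks and at 583 and 780 at 12 weeks. In the BRAF/PI3K group it stood at 607 and 207 at 2 weeks, at 1499, 593, 181 and 695 at 6 weeks and at 147 and 430 at 12 weeks. BRAF replicate 3 at 6 weeks was far above every other library, and the lowest values were all from BRAF/PI3K libraries. Hbb-bt, the other adult beta chain, had 11.3 to 147 normalized counts (median 51.0).

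Alas2 varied least, with 39.5 to 197 normalized counts (median 80.4) over the 14 libraries, the highest being 5.00 times the lowest, against 11.7 to 19.6 times for the single globins. Slc4a1 was near the lower limit of what was tested. In the BRAF group Slc4a1 stood at 42.0 normalized counts at 2 weeks, at 37.4, 12.7 and 34.1 at 6 weeks and at 22.4 and 86.5 at 12 weeks. In the BRAF/PI3K group it stood at 5.26 and 8.82 at 2 weeks, at 5.90, 23.9, 14.1 and 16.8 at 6 weeks and at 7.55 and 7.38 at 12 weeks. The lowest BRAF library overlapped the range of the BRAF/PI3K group, and 5 of the 8 BRAF/PI3K libraries were below all BRAF libraries.

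**Figure D1:**
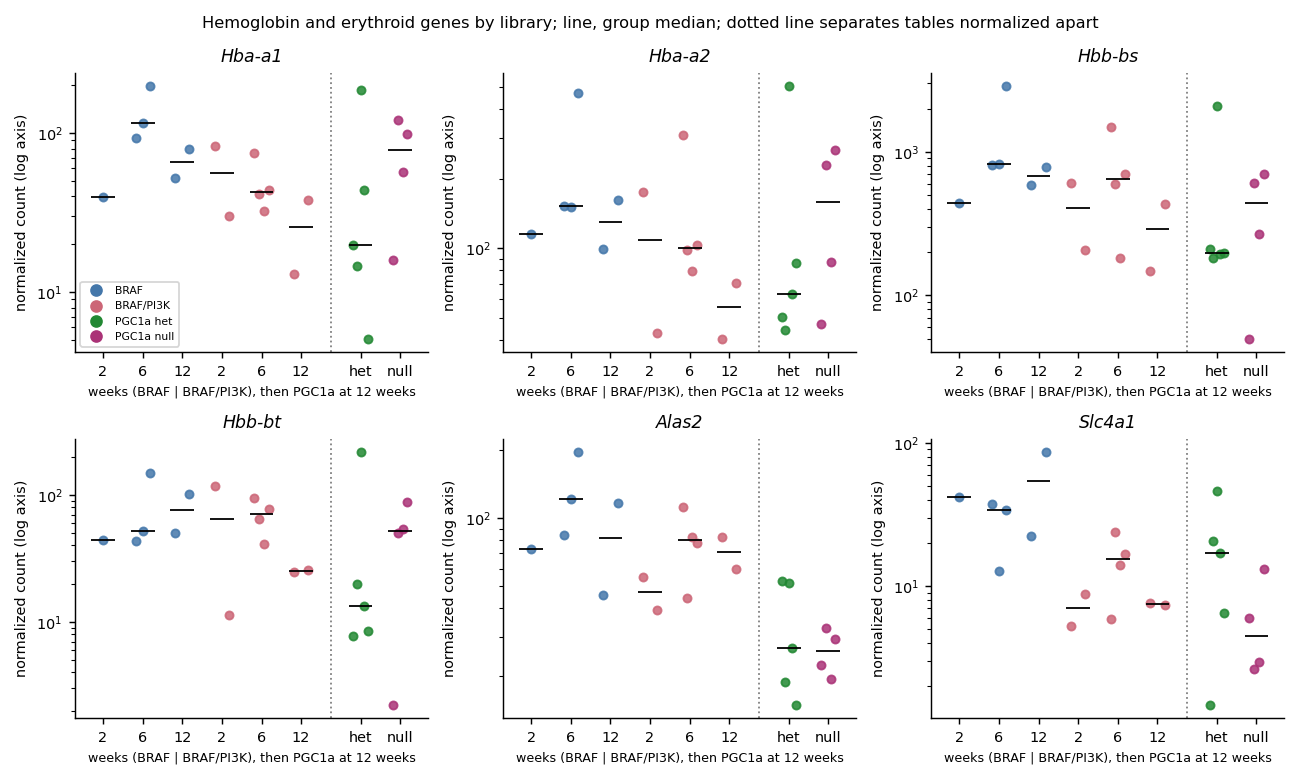
Normalized count (log axis) of each of the 6 genes in each library, by genotype and week; points are libraries and short lines are group medians, and the dotted line separates the tables, which were normalized apart. BRAF replicate 3 at 6 weeks reached 2876 for Hbb-bs, and PGC1a het replicate 3 reached 2077, each far above the rest of its group.

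In the PGC1a table, 1 het library held more globin than any other. Hbb-bs stood at 209, 181, 2077, 195 and 199 normalized counts in the het libraries and at 49.4, 608, 267 and 700 in the null libraries. Hba-a2 stood at 50.3, 44.2, 504, 63.1 and 86.2 in the het libraries and at 46.8, 229, 87.2 and 267 in the null libraries. Het replicate 3 was the highest library for both. The null libraries lay on either side of the other het libraries for Hbb-bs, whereas for Hba-a2 none lay below all het libraries.
Hba-a1 ranged from 5.06 to 186 normalized counts over the 9 libraries, and Hbb-bt from 2.21 to 218. Alas2 stood at 52.9, 18.9, 51.6, 26.8 and 14.9 in the het libraries and at 22.4, 32.8, 19.5 and 29.4 in the null libraries. Slc4a1 stood at 1.47, 20.7, 46.1, 16.9 and 6.46 in the het libraries and at 6.00, 2.61, 2.95 and 13.1 in the null libraries. The null libraries lay within the het range for both red cell genes.

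Per kilobase of the longest coding transcript, the 6 genes kept nearly one order in both tables. In the BRAF and BRAF/PI3K libraries the median level was 956 normalized counts per kb for Hbb-bs (233 to 4579), 197 for Hba-a2 (72.7 to 847), 72.5 for Hbb-bt (16.1 to 210) and 69.0 for Hba-a1 (18.5 to 284). Alas2 followed with 39.5 per kb (19.4 to 96.8) and Slc4a1 with 3.40 (1.16 to 19.04). The ranges of Hba-a1, Hbb-bt and Alas2 overlapped widely, so these neighbors in the order did not stand apart beyond their spread, whereas Slc4a1 was below Alas2 in every library, by a ratio of 3.03 to 42.4.
In the PGC1a libraries the medians were 333 per kb for Hbb-bs, 156 for Hba-a2, 63.2 for Hba-a1, 28.2 for Hbb-bt, 13.2 for Alas2 and 1.42 for Slc4a1. Hba-a1 and Hbb-bt thus changed places, within their spread. Between the main chains, Hbb-bs stood at 2.01 to 5.97 times Hba-a2 per kb in the BRAF and BRAF/PI3K libraries (median 4.49) and at 0.931 to 3.67 times in the PGC1a libraries (median 2.70), the lowest being null replicate 1. Summed over the 4 genes, globin made up 0.00132% to 0.0212% of a library there and 0.00125% to 0.0363% in the PGC1a table.

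**Figure D2:**
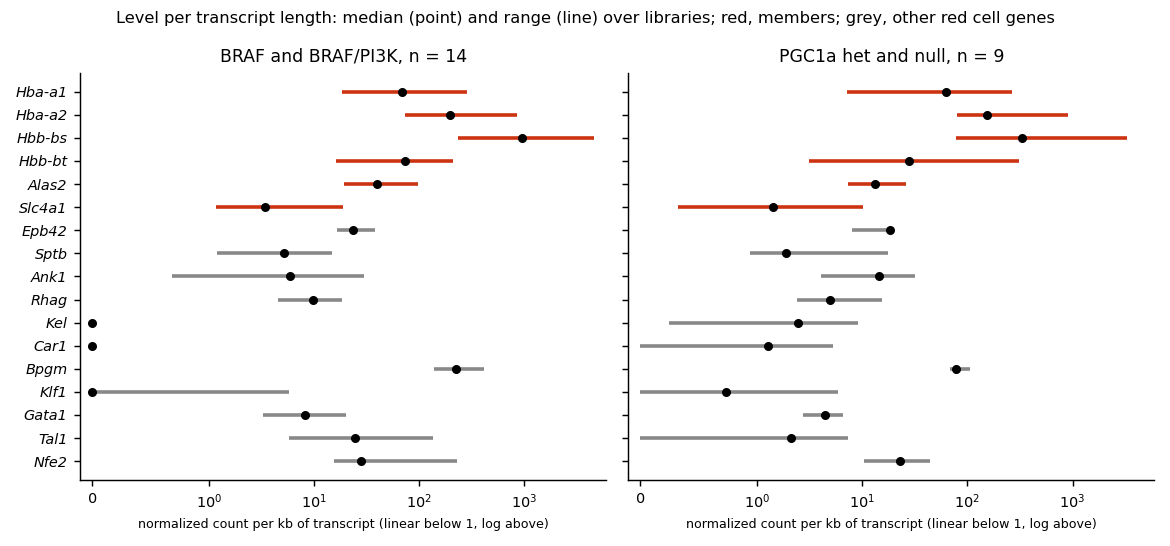
Normalized count per kb of transcript (linear below 1, log above) for the 6 genes (red) and other red cell genes (grey), as median (point) and range (line) over the 14 libraries of the BRAF and BRAF/PI3K table and the 9 of the PGC1a table. Hbb-bs has the highest median in both, at 956 and 333 per kb, and Kel and Car1 are at 0 in all 14 libraries of the first.

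The PI3K comparison asks whether the added Pik3ca allele shifted these genes. All 6 had a lower fitted level in BRAF/PI3K than in BRAF libraries with the weeks pooled, where 48.2% of all genes tested were lower. The 4 globins varied together, so here and in the comparisons below the 6 genes are not separate observations. None of the 6 passed an adjusted p under 0.05 by limma, which 0.0228% of genes did, and 2 of 6 had an unadjusted p under 0.05, as did 6.83% of genes. By the labels, 5 of 6 BRAF libraries and 3 of 8 BRAF/PI3K libraries came from female mice, so sex and genotype were in part confounded. With sex as a factor the fitted log2 fold changes of the 6 genes were all still negative, from -1.63 for Slc4a1 to -0.58 for Hbb-bt, and none had an adjusted p under 0.05 (limma). In bulk samples, fewer cells of a type and less RNA per cell cannot be told apart. The labels do not tie libraries to animals, though the study counted animals as its replicates, so p-values measure the spread between these libraries.

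Slc4a1 had the most negative fitted difference of the 6. Its mean was 39.2 ± 25.5 normalized counts in BRAF (SD, n = 6) and 11.2 ± 6.52 in BRAF/PI3K (SD, n = 8). The fitted log2 fold change was -1.65 with a standard error of 0.46 and an adjusted p of 0.415 (limma). All 8 BRAF/PI3K libraries were below the BRAF mean. A two-sided exact permutation of the genotype labels of Slc4a1 gave an unadjusted p of 0.00333, where 3003 arrangements allow 0.000333 at the smallest. At such low counts 1 read weighs heavily, and the depth in reads is unknown.

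Hba-a1 followed, with 96.5 ± 56.9 normalized counts in BRAF (SD, n = 6) and 44.6 ± 23.4 in BRAF/PI3K (SD, n = 8). Its fitted log2 fold change was -1.08 (SE 0.43, adjusted p = 0.666, limma), and its exact permutation p was 0.0256. The exact test thus passed 0.05 without adjustment for 2 of 6 genes, as it did for 6.73% of all genes tested, and 6 such tests were made here. Without BRAF replicate 2 or 3 at 6 weeks the exact permutation p of Hba-a1 was 0.0559 or 0.0660, leaving 1 of 6. Without BRAF/PI3K replicate 1 at 6 weeks it passed for 4 of 6, Hba-a2 (p = 0.0239, exact permutation) and Hbb-bs (p = 0.0297, exact permutation) being added.

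The other globins had wide errors. Hbb-bs had 1051 ± 907 normalized counts in BRAF and 545 ± 441 in BRAF/PI3K, with a fitted log2 fold change of -1.03 (SE 0.52). For Hba-a2 the fitted log2 fold change was -0.82 (SE 0.46) and for Hbb-bt it was -0.51 (SE 0.50). Alas2 had 107 ± 52.7 normalized counts in BRAF and 69.3 ± 24.1 in BRAF/PI3K, with a fitted log2 fold change of -0.55 (SE 0.34). Much of this rested on BRAF replicate 3 at 6 weeks: without it the fitted log2 fold changes were -0.68 for Hbb-bs, -0.52 for Hba-a2 and -0.34 for Alas2, while that of Slc4a1 was -1.64. Without the 12-week BRAF/PI3K libraries, whose sex labels went against Ddx3y, they were -1.53 for Slc4a1, -0.82 for Hba-a1 and -0.24 for Hbb-bt. The groups overlapped for all 6 genes, and non-overlap was met by 0.211% of genes.

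**Figure D3:**
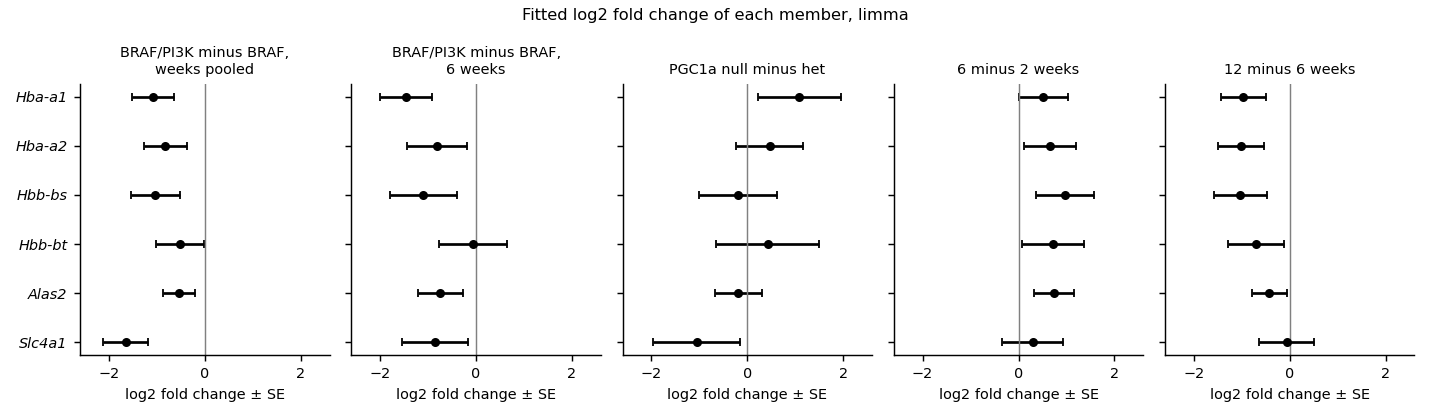
Fitted log2 fold change of each of the 6 genes (point) with its standard error (bar) in 5 comparisons by limma, on the log2(normalized count + 1) scale. All 6 lie below 0 for BRAF/PI3K minus BRAF, from -1.65 for Slc4a1 to -0.51 for Hbb-bt, and none had an adjusted p under 0.05 in any panel.

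At 6 weeks, the week with the most libraries, the 4 BRAF/PI3K libraries were set against the 3 BRAF libraries. All 6 genes again had a lower fitted level, as did 49.5% of genes tested, and 0 of 6 had an adjusted p under 0.05 by limma (0.0228% of genes), with 1 of 6 at an unadjusted p under 0.05 (4.24%). Hbb-bt was hardly lower, with a fitted log2 fold change of -0.064 (SE 0.72), which turned to 0.47 without BRAF replicate 3 and to 0.16 without BRAF/PI3K replicate 3. The gene at an unadjusted p under 0.05 was Hba-a1, with a fitted log2 fold change of -1.46 (SE 0.54, adjusted p = 1, limma). It was also the only one of the 6 whose groups did not overlap, which 5.22% of all genes met. The exact permutation p of Hba-a1 was 0.0571, where 35 arrangements allow 0.0286 at the smallest, so 0 of 6 genes passed this test, as did 2.43% of genes.
In the 6-week comparison 13 of 14 endothelial markers were higher (median log2 fold change 0.27), and 12 of 14 AT2 (-0.43) and 6 of 11 macrophage markers (-0.29) lower, and their part in these values was not tested.
Slc4a1 had a fitted log2 fold change of -0.85 (SE 0.68) at 6 weeks, of -2.45 (SE 1.10) at 2 weeks and of -2.42 (SE 0.90) at 12 weeks. At 2 weeks Hba-a1 was higher (0.32), while the other globins and Alas2 stood at -0.63 to -0.23. At 12 weeks Alas2 stood at -0.06 and the globins at -1.49 to -1.22. Only 1 BRAF library stood at 2 weeks and 2 at 12 weeks, and the lone BRAF library at 2 weeks is assumed to vary like the other groups. That library was from a female and both BRAF/PI3K libraries at 2 weeks were from males, so sex and genotype cannot be told apart there. The difference between weeks was tested as an interaction and no gene of the 6 passed, either between 6 and 2 weeks or between 12 and 6 weeks (0 of 6 by limma at an adjusted or an unadjusted p under 0.05). Of all genes, 0% had an adjusted p under 0.05 in either interaction, and 8.95% and 2.87% an unadjusted one.

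With time, all 6 genes had a higher fitted level at 6 than at 2 weeks in a fit with genotype as a factor, where 51.4% of genes were higher. Fitted log2 fold changes ran from 0.29 (SE 0.63) for Slc4a1 to 0.98 (SE 0.61) for Hbb-bs. The direction turned for Hba-a1 without the BRAF library at 2 weeks (-0.12), for Hbb-bt without BRAF/PI3K replicate 2 at 2 weeks (-0.071) and for Slc4a1 without BRAF/PI3K replicate 1 at 2 weeks (-0.013). None of the 6 passed an adjusted p under 0.05 by limma (0.0513% of genes did) or an unadjusted p under 0.05 (11.9%). In the same comparison all 14 AT2 markers had a higher fitted level (median log2 fold change 1.62, 12 at an unadjusted p under 0.05), as did 10 of 12 lymphocyte (0.99, 5) and 9 of 11 macrophage markers (0.73, of which 3 higher and 1 lower at that p), while 5 of 14 endothelial markers were higher (-0.05). From 6 to 12 weeks all 6 had a lower fitted level, as did 50.4% of genes, with fitted log2 fold changes from -0.06 (SE 0.57) for Slc4a1 to -1.03 (SE 0.55) for Hbb-bs. Slc4a1 turned direction with any of 5 libraries left out, reaching 0.13 without BRAF replicate 1 at 12 weeks. Again none of the 6 passed by limma, adjusted (0% of genes) or unadjusted (5.31%). Here 13 of 14 AT2 (median 0.58) and 9 of 11 macrophage markers (0.52) were higher, and 12 of 14 endothelial (-0.84) and 10 of 12 platelet markers (-0.77) lower. The part of these cells in the values over time was not tested. Summed globin had a median of 636 normalized counts at 2 weeks (n = 3), 1100 at 6 weeks (n = 7) and 675 at 12 weeks (n = 4). The range at 6 weeks, 334 to 3691, held both others' medians, so time did not separate the libraries beyond their spread.

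The PGC1a comparison set the 4 null libraries against the 5 het libraries at 12 weeks. The 6 genes were divided, 3 with a higher and 3 with a lower fitted level, where 48.9% of genes tested were lower. None had an adjusted p under 0.05 by limma (0% of genes) or an unadjusted p under 0.05 (3.83%), and the exact permutation test passed for 0 of 6 (4.05% of genes), with a smallest possible p of 0.00794 over 126 arrangements. Hba-a1 had a mean of 73.5 ± 46.7 normalized counts in null (SD, n = 4) and 53.9 ± 75.1 in het (SD, n = 5), with a fitted log2 fold change of 1.09 (SE 0.87). Hba-a2 stood at 0.47 (SE 0.69), Hbb-bt at 0.43 (SE 1.07) and Hbb-bs at -0.19 (SE 0.82) on the same scale of fitted log2 fold change. Without null replicate 1, the lowest in globin, that of Hbb-bs was 0.62, and without het replicate 3, the highest, it was 0.49. Its direction thus turned with either library.
Alas2 had a fitted log2 fold change of -0.19 (SE 0.49). Slc4a1 had 6.17 ± 4.87 normalized counts in null and 18.3 ± 17.3 in het, with a fitted log2 fold change of -1.06 (SE 0.90). Without het replicate 3 its mean fell under 10 normalized counts and it was no longer tested.

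The 4 globins varied together from library to library in both tables. Over the 14 BRAF and BRAF/PI3K libraries, Pearson's r of log2(normalized count + 1) between an alpha and a beta globin was 0.706 to 0.933 (Spearman's rho 0.758 to 0.916), and all 4 such pairs passed by 100000 permutations. Their p of r was 1e-05, the smallest these permutations can give, to 0.0053, or 0.00015 to 0.0177 with Benjamini-Hochberg adjustment over the 30 pairs of both tables, and the adjusted permutation p of rho was 0.0003 to 0.0113. Over the 9 PGC1a libraries r was 0.782 to 0.920 (rho 0.767 to 0.933), and all 4 passed by exact permutation (p of r 0.000322 to 0.0107, adjusted 0.00161 to 0.0247, and adjusted p of rho 0.0045 to 0.0494). Without the 2 libraries farthest from the median, r was 0.585 to 0.861 and 0.656 to 0.838, and 3 of 4 and 1 of 4 pairs passed, so in the PGC1a table the relation rested in part on those libraries. Within a genotype, alpha with beta globin gave r of 0.678 to 0.971 in BRAF (n = 6, 1 of 4 passed by exact permutation) and 0.733 to 0.890 in BRAF/PI3K (n = 8, 3 of 4). The alpha and beta genes lie on different chromosomes and share no stretch of 50 bases, while all values of a library share its depth and normalization.

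Alas2 followed the globins less closely. Its r with the 4 globins was 0.550 to 0.683 over the 14 libraries (rho 0.407 to 0.631), and 1 of 4 pairs passed by r. For that pair, Alas2 with Hba-a2, r was 0.683 (p = 0.0072, adjusted 0.0196, 100000 permutations) and rho 0.591 (adjusted permutation p = 0.0614). Without the 2 farthest libraries that r was 0.401, so it rested on them. In BRAF (n = 6) the r of Alas2 with the globins was 0.767 to 0.885 and in BRAF/PI3K (n = 8) it was 0.0419 to 0.425, with 0 of 4 passing by exact permutation in either. In the PGC1a table it was 0.370 to 0.591 (rho 0.217 to 0.683, 0 of 4 passed by exact permutation, adjusted p 0.171 to 0.353).

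Slc4a1 followed them least. Its r with the globins was 0.282 to 0.336 over the 14 libraries (rho 0.169 to 0.253, p of r 0.242 to 0.330, adjusted 0.353 for all 4, 100000 permutations) and 0.263 to 0.427 over the 9 (rho 0.0333 to 0.433, exact permutation, adjusted p 0.353 to 0.505), and no pair passed. With the genotype means subtracted, its r with the globins was -0.179 to 0.154 in the first table and 0.411 to 0.522 in the second. Alas2 with Slc4a1, the erythroid pair, gave r of 0.305 and 0.0475. Whether the r of the globin pairs exceeds that with the red cell genes was not tested, and Slc4a1 has lower counts than the others.

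**Figure D4:**
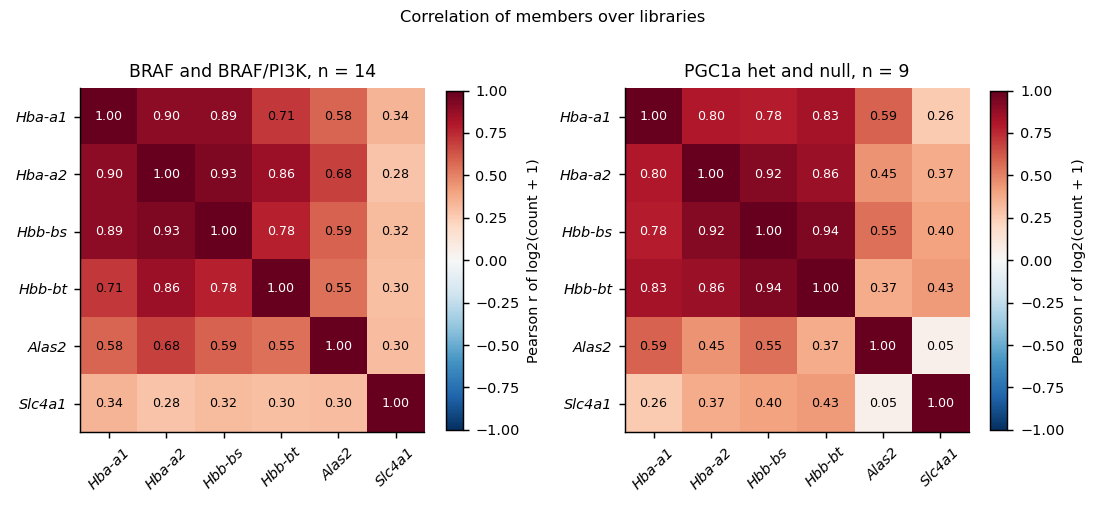
Pearson's r of log2(normalized count + 1) between each pair of the 6 genes over the 14 BRAF and BRAF/PI3K libraries (left) and the 9 PGC1a libraries (right), from -1 (blue) to 1 (red). The alpha with beta globin cells hold 0.706 to 0.933 and 0.782 to 0.920, and the cells of Slc4a1 with the globins 0.282 to 0.336 and 0.263 to 0.427.

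Set beside the red cell genes per length, summed globin was 34.6 times Alas2 at the median of the 14 libraries (8.84 to 61.1) and 248 times Slc4a1 (94.0 to 2458). In the 9 PGC1a libraries it was 67.1 times Alas2 (17.2 to 189) and 473 times Slc4a1 (91.5 to 2829). The ratio to Slc4a1 thus varied far more between libraries than the ratio to Alas2. Among the 14, the lowest ratio to Slc4a1 was in BRAF replicate 2 at 12 weeks and the highest in BRAF/PI3K replicate 1 at 6 weeks, the library with the most globin of its genotype and 5.90 normalized counts of Slc4a1.

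**Figure D5:**
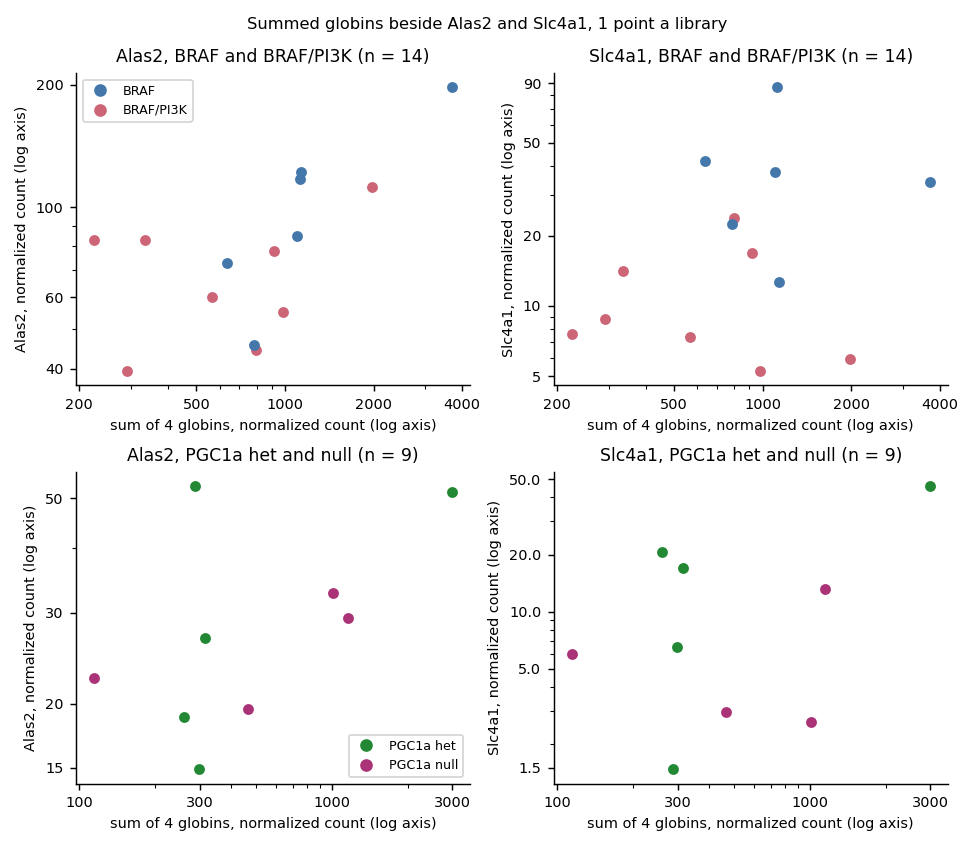
Normalized count of Alas2 (left) and Slc4a1 (right) against the sum of the 4 globins in each library, on log axes, for the BRAF and BRAF/PI3K table (top, n = 14) and the PGC1a table (bottom, n = 9); each point is a library, colored by genotype. The library with 3691 summed globin has the most Alas2 (197), while the BRAF/PI3K library with 1979 has 5.90 normalized counts of Slc4a1.

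Some other genes that mark red cells or their precursors, picked after their values were seen, were low or listed at 0. Klf1, the erythroid transcription factor that turns on adult beta globin, was listed at 0 in 11 of 14 libraries of the BRAF and BRAF/PI3K table. Kel, the Kell blood group protein, Car1, the red cell carbonic anhydrase, Cldn13 and the transcription factor Gfi1b were listed at 0 in all 14. In the PGC1a table, which has lower totals, Kel stood at 0.252 to 9.21 per kb and Car1 at 0 to 5.26, and Klf1 was listed at 0 in 3 of 9 libraries, Gfi1b in 6 and Cldn13 in 8. The red cell skeleton gene Epb42 had a median of 23.7 normalized counts per kb in the first table and 18.5 in the second, above Slc4a1 in both. With no depth in reads, a value of 0 limits these transcripts only loosely.

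The embryonic alpha-type globin Hba-x, the beta-type genes Hbb-bh0, Hbb-bh1 and Hbb-bh2 and the theta globin Hbq1b were listed at 0 in all 14 libraries of the first table, and the embryonic beta-type chain Hbb-y was listed at 0 in 13 of 14. In the PGC1a table none of these 6 was at 0 in every library: Hbb-bh2 reached 14.5 normalized counts and was at 0 in 1 of 9, Hbb-bh1 reached 7.90 and was at 0 in 3, and Hba-x, Hbb-y, Hbb-bh0 and Hbq1b were at 0 in 6 or 7 of 9 and reached at most 4.22. Of the 11 other globin-fold genes measured, only Cygb (cytoglobin) and Adgb (androglobin) reached a mean of 10 normalized counts, with means of 81.8 and 29.1 in the first table and 20.2 and 26.0 in the second.

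The libraries with the most globin differed in what else they held. BRAF replicate 3 at 6 weeks, with 3691 normalized counts of summed globin, also ranked highest of 14 for Alas2 (197), the pan-leukocyte gene Ptprc (3717) and the summed markers of macrophages (31039, range of all libraries 2277 to 31039) and lymphocytes (2134, range 605 to 2134). It ranked 4 of 14 for Slc4a1 and for the endothelial sum, and Klf1 and Car1 were listed at 0 in it. PGC1a het replicate 3, with 2985, ranked highest of 9 for Slc4a1 (46.1) and next to highest for Alas2 (51.6). It ranked lowest of 9, however, for Ptprc (131) and for the macrophage (709), lymphocyte (258) and endothelial (667) sums. Ptprc and the macrophage and lymphocyte sums were thus highest in the one and lowest in the other. This contrast is of 1 library from each table. BRAF/PI3K replicate 1 at 6 weeks, next in globin with 1979, had the highest endothelial sum of its table (101313). Its macrophage sum was 29184, its lymphocyte sum 1586 and its Ptprc 1453. PGC1a null replicate 4, next with 1153, had the highest Ptprc (1094), lymphocyte sum (989) and endothelial sum (2505) of its table. The part that blood or other cells in the sort had in the globin level was not tested, and globin RNA of red cells cannot be told apart from globin RNA of tumor cells in these bulk values.

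The wider gene lists are described by counts beside all genes, for which the median fitted log2 fold change was 0.02 in the PI3K comparison and 0.01 in the PGC1a comparison. For BRAF/PI3K against BRAF, 8 of 15 genes for the red cell membrane and its carriers were lower (median -0.13), as were 7 of 12 erythroid maturation genes (-0.07), 5 of 12 erythroid transcription factors (0.12) and 8 of 13 heme synthesis genes (-0.02). None of these lists held a gene at an adjusted p under 0.05 by limma. Their medians were thus near 0, where the 6 globin and red cell genes had a median of -0.93. The 4 globins varied together and each pair shares much of its sequence, so the 6 are not separate observations. The difference between these medians was not tested.
At an unadjusted p under 0.05, Bpgm (-0.57), which makes the bisphosphoglycerate that lowers hemoglobin's oxygen affinity, and Ube2o (-0.62), a ubiquitin enzyme of red cell maturation, had lower fitted log2 levels. Cpox (-0.87), a later enzyme of heme synthesis, was lower and Zfpm1 (0.94), a partner of GATA1, higher. Slc25a37 (-0.54), the mitochondrial iron importer, and Alas1 (0.32), the housekeeping form of the synthase, did not reach it. Of 9 iron genes 5 were lower (median -0.37), among them the iron carrier Trf (-1.06) and the ferritin light chain Ftl1 (-1.58) at an unadjusted p under 0.05, while the ferritin heavy chain Fth1 stood at 0.42. Of 12 genes for heme and hemoglobin clearance 4 were lower (median 0.14).
The genes with the highest mean of each list in the BRAF and BRAF/PI3K table are also made by many other cells, and those not named above did not reach an unadjusted p under 0.05. Of the membrane and carrier list these were Epb41 (fitted log2 fold change 0.02), Aqp1 (0.60), Cd59a (-0.23) and the glucose carrier Slc2a1 (0.22). Of the maturation list they were Bnip3l (-0.0027), which marks mitochondria for removal, Xpo7 (-0.13), Car2 (0.22) and Gclm (0.39). Of the transcription factors they were Zbtb7a (0.07), a repressor of fetal globin, Gata2 (0.97), Ldb1 (-0.05) and Lmo2 (0.94). Clearance added Lrp1 (0.34), Slc48a1 (0.28), Abcg2 (0.26) and Hmox2 (-0.14), and iron Ireb2 (0.25) and the transferrin receptor Tfrc (-0.37).

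Markers of other cells moved in the same comparison. All 14 endothelial markers had a higher fitted level in BRAF/PI3K (median log2 fold change 0.90, 4 at an unadjusted p under 0.05, as were 6.83% of all genes), with summed levels of 6997 to 51364 normalized counts in BRAF and 15877 to 101313 in BRAF/PI3K. Of 11 macrophage markers 9 were higher (0.57), with sums of 2277 to 31039 and 4639 to 29184. Of 12 lymphocyte markers 10 were lower (-0.46), and 7 of 12 platelet (-0.13) and 3 of 8 neutrophil markers (0.16) were lower. Of 14 AT2 markers 13 were lower (-0.94, 3 at an unadjusted p under 0.05). None of these had an adjusted p under 0.05 by limma, and their part in the lower globin values was not tested.

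In the PGC1a comparison 11 of 15 membrane and carrier genes (median 0.25), 10 of 12 maturation genes (0.24) and 7 of 10 transcription factors (0.50) had a higher fitted level in null, and 10 of 13 heme synthesis genes had a lower one (-0.14). None passed an adjusted p under 0.05 by limma. Those at an unadjusted p under 0.05 were Aqp1 (2.88), a water channel of red cells that endothelium also makes, Alox15 (4.90), Tmcc2 (1.45), Gata2 (2.06) and Lmo2 (1.77). The 13 endothelial markers were all higher (median 1.70, 12 at an unadjusted p under 0.05, as were 3.83% of all genes), with sums of 667 to 1164 in het and 1814 to 2505 in null. The 11 macrophage markers were all higher too (0.99, 5 at an unadjusted p under 0.05), with sums of 709 to 2221 and 2464 to 3743. Of 11 lymphocyte markers 10 were higher (0.46), as were 7 of 9 neutrophil (0.43) and 4 of 10 platelet markers (-0.10), while the AT2 markers were lower in 14 of 14 (-0.29), a count that includes the targeted gene Ppargc1a itself (-1.51). Clearance and iron genes were higher in 8 of 12 (0.18) and 6 of 9 (0.14), with Lrp1 (1.35), a receptor that takes up heme bound to hemopexin, and Ncoa4 (0.68), the receptor for ferritin breakdown, at an unadjusted p under 0.05. The part of these cells in the values of the 6 genes was not tested.

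The genes whose pattern over libraries was most like summed globin were different in each table. In the BRAF and BRAF/PI3K table the nearest gene outside the 4 globins was Gm12013 (r = 0.875 over 14 libraries), followed by the ribosomal protein gene Rplp1 (0.847), Ssb (0.806), LT629148.3 (0.798), Sh2d1a (0.780), Ift46 (0.776), Rps25 (0.763) and Rps15a-ps7 (0.758). In the PGC1a table these were Rbfox2 (r = 0.924 over 9 libraries), Eef1e1 (0.904), Mrpl33 (0.883), Eid3 (0.883), Sec1 (0.881), Smu1 (0.881), Klf13 (0.879) and Lzts2 (0.873). The tables shared 0 of the 100 nearest genes of each. Lists of 100 from so many genes share few by chance, so this count does not show that the tables differ. Alas2 ranked 151 of 17558 genes by likeness to summed globin in the first table and 1110 of 17424 in the second, and Slc4a1 ranked 2384 and 2605. Sftpc ranked 6568 and 10661, Pecam1, an endothelial marker, 3821 and 7800, and Ptprc 5948 and 13998. These ranks describe so few libraries that many genes reach a high r by the number searched, and no p is given.
The gene nearest to Alas2 was Tkt (r = 0.843) in the first table and Akr1c14 (0.941) in the second, and that nearest to Slc4a1 was Uqcrc2 (0.858) and Ndufaf7 (0.944). Of the 100 nearest genes, 4 were shared by the tables for Alas2 and 1 for Slc4a1, and the number that chance would give was not worked out.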

How the data were processed

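RNA of sorted cells was amplified (Nugen Ovation Ultralow V2) and sequenced as single reads of 50 bases. Per the study's methods, libraries came from RNA with an integrity number above 6. The deposited signal values are normalized counts: the authors estimated transcript abundance with Salmon at default settings and normalized the estimates with DESeq2, separately for the 14 and the 9 libraries. The submitters' processing notes name GRCm38, and the annotation is not given in the sources used here. The authors' comparison tables, which hold base means, log2 fold changes, standard errors, test statistics and p-values, were not used. No tests for whole counts were run, since only some low values were whole multiples of a common step (10.6% to 41.4% and 15.2% to 26.8% a library, tolerance 0.01), so the depth in reads is unknown and precision is given by the spread between libraries.

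Groups were taken from the labels. Log2(normalized count + 1) was fitted for genes with a mean of at least 10 with limma 3.58.1 (trend, two-sided) in R 4.3.3, adjusted by Benjamini-Hochberg over all genes, with a call at an adjusted p under 0.05. Fold changes are on that scale and understate those of low genes. Single genes were also tested by exact permutation of labels over libraries, and the fits were tested on simulated data. Replicate numbers did not pair samples. Lengths are from GENCODE vM21, promoters and sequences from GRCm38.p6. Slc4a1 has no promoter entry in the RefSeq table. Other steps ran in Python 3.11.15 with scipy 1.17.1, pandas 2.3.3, numpy 2.4.6 and, for the plots, matplotlib 3.10.9.

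The 6 genes and all lists were chosen with earlier results of these data known. Of the lists for red cells, heme and iron, the genes named were those at an unadjusted p under 0.05 in the PI3K comparison over all weeks or the PGC1a comparison and, in the BRAF and BRAF/PI3K table, the 4 highest in mean and those at 0 in all libraries. Lists for other cells and, in the PGC1a table, the 4 highest are given by counts only, which departs from the planned rule. Others named were chosen after their values were seen. A few list genes are not reported here by name. Alternatives were a pseudocount of 4, a mean over 40, no filter, quantile normalization, scaling by library total, sex or week as a factor, a replicate block, 6-week libraries alone and leaving out each library. Added after seeing the data were leaving out the 12-week BRAF/PI3K libraries or the library highest in globin, and another transcript length.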

Additional observations from a re-analysis of the deposited data

Results flagged for a closer look

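Values were screened for single libraries that stood apart from the rest of their group in 35 groups of values, and 8 were found. Chance alone gives about 1 in 20 where values are normally distributed. The screen used log2(normalized count + 1), and whether these values are normally distributed was not tested. The BRAF and BRAF/PI3K groups also pool 3 weeks, so the rate that chance gives here is not known. Levels below are normalized counts. BRAF replicate 3 at 6 weeks stood above the rest of the BRAF group for Hba-a2 (469 normalized counts, the others 98.7 to 161), for Hbb-bs (2876, the others 437 to 818) and for the sum of the 4 globins (3691, the others 636 to 1136). PGC1a het replicate 3 stood above the other het libraries for Hba-a2 (504, the others 44.2 to 86.2), for Hbb-bs (2077, the others 181 to 209), for Hbb-bt (218, the others 7.69 to 19.8) and for the sum (2985, the others 260 to 315). PGC1a null replicate 1 stood below the other null libraries for Hbb-bt (2.21, the others 50.4 to 87.4). The globins of a library move together, so 7 of these 8 describe only 2 libraries. Neither Alas2 nor Slc4a1 gave such a library in any group.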

How the results depend on the processing

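The number of the 6 genes called by limma was 0 in all 5 comparisons under every alternative run and with any single library removed. Of 234 fitted log2 fold changes under the alternatives, 2 turned direction: Hbb-bs in the PGC1a comparison with sex as a factor (0.068) and Slc4a1 at 6 against 2 weeks with quantile normalization (-0.084). With each library left out, 15 of 389 turned, and the ranges were -0.64 to 0.62 for Hbb-bs, -0.092 to 1.503 for Hbb-bt and -0.42 to 0.023 for Alas2 in the PGC1a comparison, -0.39 to 0.47 for Hbb-bt at 6 weeks, -0.12 to 1.12 for Hba-a1, -0.071 to 1.60 for Hbb-bt and -0.013 to 0.65 for Slc4a1 at 6 against 2 weeks, and -0.54 to 0.13 for Slc4a1 at 12 against 6 weeks. The cause was not tested. With all weeks pooled, exact permutation passed for 2 of 6 genes and for 1 to 4 with a library left out. Of the 15 pairs of genes, 7 were correlated in the BRAF and BRAF/PI3K table, 4 without the 2 farthest libraries, 1 within BRAF and 4 within BRAF/PI3K, where fewer libraries entered. In the PGC1a table these were 6, and 2 either without the 2 farthest libraries or without the library highest in globin. Slc4a1 in both tables and Alas2 in the PGC1a table were not tested at a mean over 40.

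The groups share replicate numbers, but same-numbered libraries did not deviate together: the correlation of their deviations was -0.28 to -0.01 in 5 pairs of the first table and -0.47 to 0.21 in 4 pairs of the second, with 0 and 2 over 0.1. With the replicate number as a block, 0 of the 6 genes were called in any comparison so fitted, as without it.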
